A study of Mus musculus with 45 samples.

Results

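Cops8, Thap4, Zfp429, Fastkd3 and Glrx are 5 genes whose array signal was higher in mouse embryonic stem cell (ESC) clones with names beginning in KT than in clones with names beginning in CC, for Glrx by only 1 of its 2 tested probes. They were selected on their log2 intensities in KT and CC clones of these same arrays, out of 19057 genes on the array, so the KT and CC levels below describe the choice and carry no test. All 8 probes with these symbols were followed on all 45 arrays, and 6 of the 8 passed the filter on low signal.

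Smad2 and Smad3 are the transcription factors that carry Nodal and Activin signals to the genome. Clones lacking both genes (Smad2/3 DKO, KT15.1F6, KT15.1F11, KT15.2D5 and KT15.2G9), Smad2 alone (Smad2 KO, KT11, KT12, KT15 and KT17) or Smad3 alone (Smad3 KO, CCE.1H1, CCE.2B7, CCE.2E7 and CCE.2H2) were set beside wild-type clones (WT, CCE, CCB, CCH and CCF), 16 clones in all. RNA was taken from feeder-free ESCs in serum with LIF, and from embryoid bodies (EBs) grown from 100 cells each without LIF for 2 days (d2) or 3 days (d3). Each group held 4 arrays, except for 3 in each knockout ESC group.

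All cells are of the strain 129/Sv//Ev. The Smad2 mutants carry the allele Smad2tm1Rob in both copies, and Smad3 was disrupted by CRISPR deletion. By their names, Smad3 KO clones derive from CCE, a WT line, and Smad2/3 DKO clones from KT15, one of the Smad2 KO clones. KT origin therefore goes with the loss of Smad2 at every stage, and they cannot be told apart. In EB samples it also goes with EB number. This was mostly 5000 per Smad2/3 DKO sample, 2500 or 5000 per Smad2 KO sample and 1250 per Smad3 KO or WT sample. Origin, loss of Smad2 and EB number cannot be told apart there, and ESC samples have no EB number. Replicates of a group are separate clones, so the p-values within a stage measure the spread between clones. Smad2/3 DKO clones and Smad3 KO clones each come from a single line, so theirs is a spread between sister clones. Comparisons over stages hold several arrays of each clone and take them as independent, or nearly so with clone as a random block (correlation 0.0443).

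The 5 genes are not known parts of one pathway. Cops8 encodes a subunit of the COP9 signalosome, which takes the ubiquitin-like protein Nedd8 off cullin ubiquitin ligases. Thap4 encodes a protein with a THAP zinc finger and a heme-binding domain, and Zfp429 a zinc finger protein of the large mouse KRAB family. Fastkd3 encodes a mitochondrial RNA-binding protein, and Glrx encodes glutaredoxin, which removes glutathione from oxidized proteins.

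Cops8 and Thap4 lie on chromosome 1 with 92 annotated genes between them. Zfp429, Fastkd3 and Glrx lie on chromosome 13, with 30 genes between Zfp429 and Fastkd3 and 127 between Fastkd3 and Glrx. The stretch of 250 bases before the annotated start (RefSeq, build GRCm38.p6) is shown for Cops8, Fastkd3 and Glrx, the last of which was high in KT clones by 1 of its 2 probes, to show how unlike these promoters are. Capitals mark a GC box (GGGCGG on either strand) or a CCAAT box (CCAAT on either strand).
Cops8, chr1:90603175-90603424, plus strand: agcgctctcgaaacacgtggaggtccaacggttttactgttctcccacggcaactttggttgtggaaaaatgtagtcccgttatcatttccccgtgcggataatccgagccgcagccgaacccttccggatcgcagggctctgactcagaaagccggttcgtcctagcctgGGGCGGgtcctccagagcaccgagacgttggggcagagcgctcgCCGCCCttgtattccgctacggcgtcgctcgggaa
Fastkd3, chr13:68581960-68582209, plus strand: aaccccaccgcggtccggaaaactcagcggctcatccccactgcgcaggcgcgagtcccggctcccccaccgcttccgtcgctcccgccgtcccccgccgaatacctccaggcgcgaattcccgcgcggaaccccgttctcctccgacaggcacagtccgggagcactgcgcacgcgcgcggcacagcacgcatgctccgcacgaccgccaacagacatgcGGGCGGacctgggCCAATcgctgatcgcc
Glrx, chr13:75839635-75839884, plus strand: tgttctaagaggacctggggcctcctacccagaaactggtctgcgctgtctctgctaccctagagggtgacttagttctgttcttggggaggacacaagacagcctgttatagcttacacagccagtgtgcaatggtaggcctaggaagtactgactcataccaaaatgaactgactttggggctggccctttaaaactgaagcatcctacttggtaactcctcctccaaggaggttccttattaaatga

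The Cops8 stretch held 26 CpG dinucleotides and 2 GC boxes, and that of Fastkd3 36 CpG, 1 GC box and 1 CCAAT box. The Glrx stretch held 1 CpG and none of the motifs searched. Thap4 has 2 annotated starts, one with 45 CpG and 3 GC boxes and the other with 1 CpG, a CCAAT box and a TATA box (TATAAA), and Zfp429 had 8 CpG and no motif. Over all 32851 promoters the median was 6 CpG, 32.7% held a GC box, 33.8% a CCAAT box and 12.4% a TATA box. The palindromic Smad binding element GTCTAGAC, present in 0.167% of all promoters, was in none of these windows.

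Levels are normalized intensities on the log2 scale, and a probe counts as detected at a detection p-value under 0.01. Each array had a median signal between 111 and 243, with 11338 to 14256 of its 45281 probes detected. Smad3 was detected on 1 of 11 Smad2/3 DKO, 10 of 11 Smad2 KO, 1 of 11 Smad3 KO and 12 of 12 WT arrays. The Smad2 probe lay between 8.55 and 9.73 on KT arrays and between 8.37 and 9.75 on CC arrays, so it did not separate the genotypes, and its place relative to the disrupted sequence is not known here. ESC markers averaged 12.59 to 12.99 in KT ESCs and 10.4 to 12.82 in CC ESCs, where the value of 10.4 was the Smad3 KO clone CCE.2B7.

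On the 11 Smad2/3 DKO arrays Cops8 ran from 9.87 to 10.47, with a median of 10.1. In Smad2 KO ESCs it was 10.52 in KT12, 9.83 in KT15 and 10.21 in KT17. None of these arrays fell near the levels of WT.

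In Smad2 KO d2 EBs, Cops8 was 10.37 in KT12 and 10.24 in KT11, but 5.36 in KT15 and 5.39 in KT17, both not detected. In d3 EBs it was 10.17 in KT17 and 10.23 in KT15, against 6.56 in KT12 and 5.43, not detected, in KT11. Each of these 4 clones thus gave the high level at one EB stage and a low level at the other.

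In Smad3 KO cells Cops8 was not detected at 5.8 in CCE.1H1 ESCs and 5.53 in CCE.2E7 ESCs, and stood at 10.36 in CCE.2B7 ESCs. In Smad3 KO EBs it ran from 5.22 to 5.83 at d2 and from 4.99 to 6.01 at d3, with no array detected. On the 12 WT arrays it ran from 5.21 to 5.97 with a median of 5.56, and was detected on none. CCE.2B7 ESCs were the 1 CC array of 23 with Cops8 detected.

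Group means of Cops8 were 10.28 ± 0.19 in d2 Smad2/3 DKO EBs, 10.19 ± 0.35 in Smad2 KO ESCs, 10.07 ± 0.04 in Smad2/3 DKO ESCs and 10.04 ± 0.13 in d3 Smad2/3 DKO EBs (SD, n = 3 or 4), and these neighbours in the order did not differ beyond their spread. Next came the 3 groups that held both levels, d3 Smad2 KO EBs with 8.1 ± 2.47, d2 Smad2 KO EBs with 7.84 ± 2.85 and Smad3 KO ESCs with 7.23 ± 2.71. The other 5 groups, all of CC clones, averaged between 5.43 and 5.63. Against the detection limit in WT, Cops8 in Smad2/3 DKO was at least 9.39-fold higher in ESCs, 11.4-fold in d2 EBs and 10.3-fold in d3 EBs. Such bounds set the mean of the high group against the lowest detected signal of each WT array, or the probe's own value where that was higher.

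**Figure D1:**
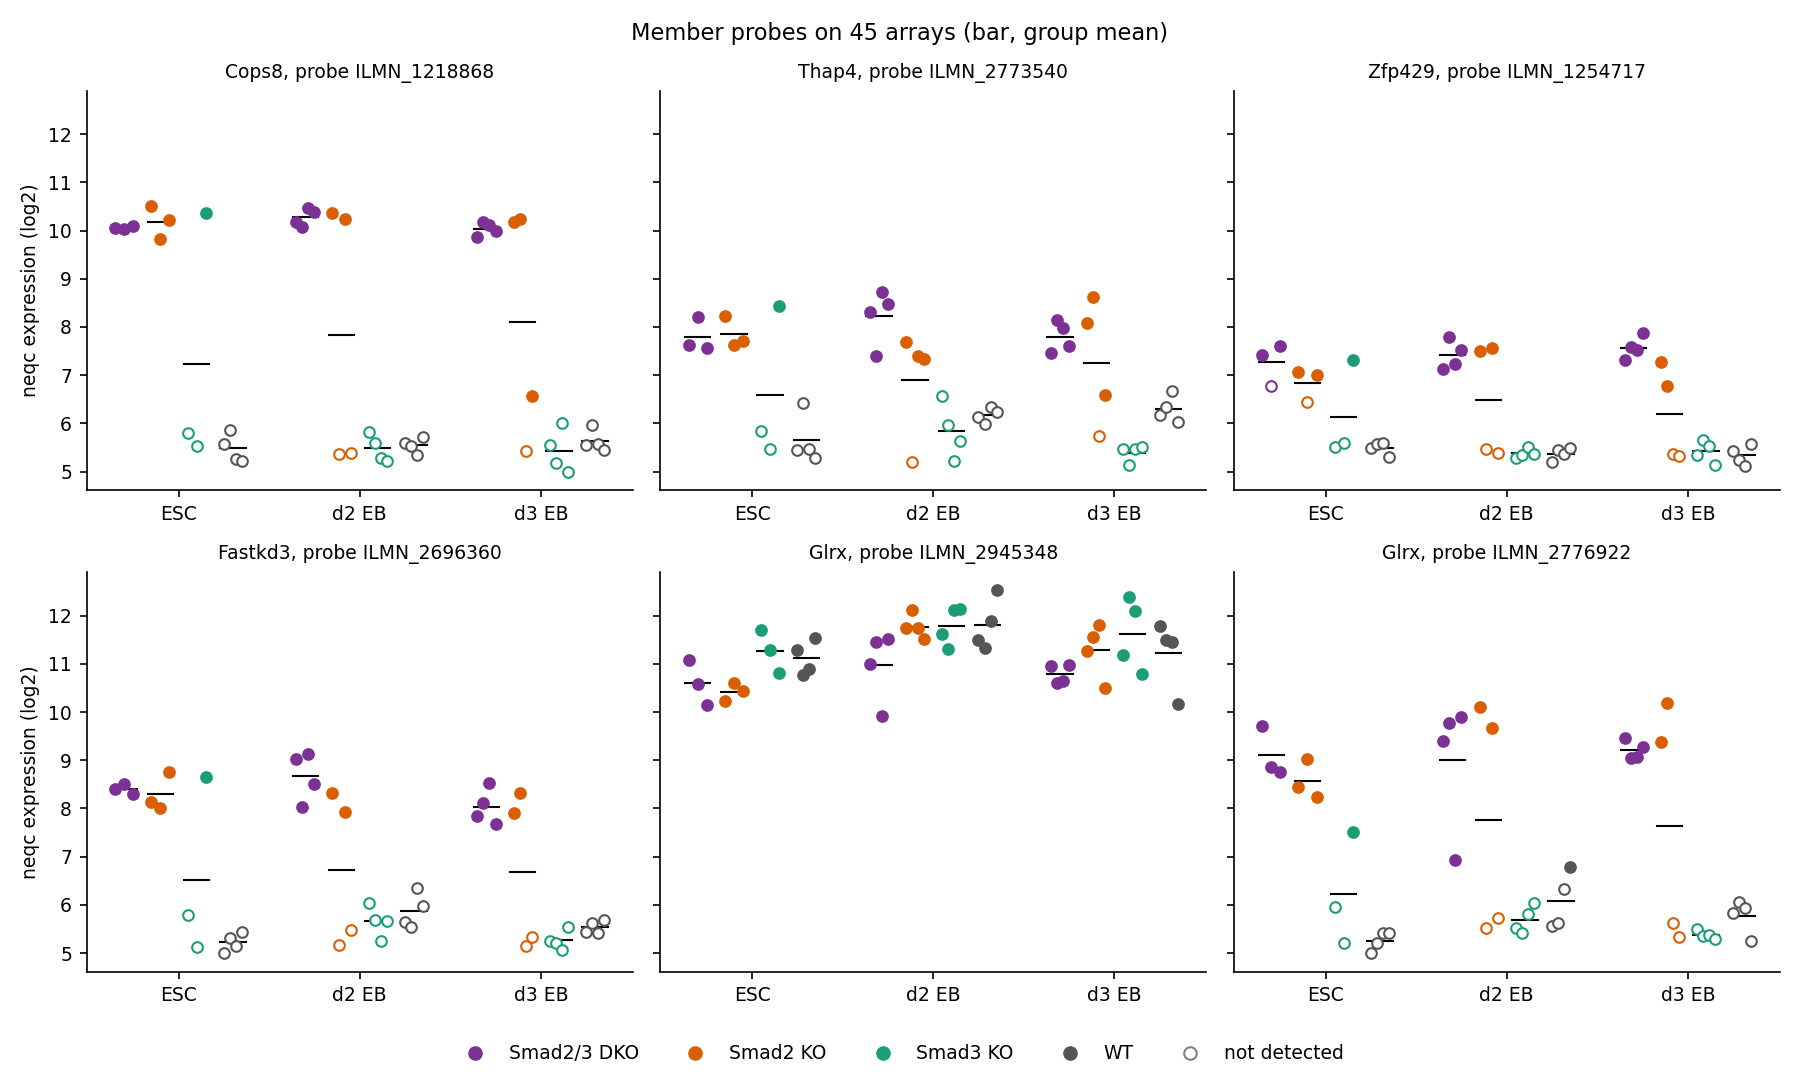
Normalized intensity (log2, vertical axis) of the 6 tested probes on each of 45 arrays by stage, with genotype in colour, open points for probes not detected and bars for group means. Cops8, Thap4, Zfp429, Fastkd3 and Glrx probe ILMN_2776922 lie high on Smad2/3 DKO arrays and low on WT arrays with both levels in Smad2 KO EBs, while Glrx probe ILMN_2945348 was detected on all arrays between 9.91 and 12.53.

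Fastkd3 followed the same split. It ran from 7.68 to 9.14 on the 11 Smad2/3 DKO arrays, with a median of 8.4. In Smad2 KO ESCs it was 8.13 in KT12, 8 in KT15 and 8.75 in KT17. It was detected on all of these arrays.

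In Smad2 KO d2 EBs Fastkd3 was 8.32 in KT12 and 7.93 in KT11, against 5.16 in KT15 and 5.47 in KT17, both not detected. In d3 EBs it was 7.9 in KT17 and 8.32 in KT15, against 5.14 in KT11 and 5.34 in KT12, both not detected. In Smad3 KO ESCs it was 8.66 in CCE.2B7 but 5.78 and 5.13 in CCE.1H1 and CCE.2E7. The low and high arrays were thus those of Cops8.

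Fastkd3 was not detected on any of the 12 WT arrays, which ran from 5.01 to 6.35 with a median of 5.49. In Smad2/3 DKO it was at least 2.96-fold, 3.77-fold and 2.56-fold higher than in WT in ESCs, d2 EBs and d3 EBs. Its highest group means were 8.68 ± 0.51 in d2 Smad2/3 DKO EBs, 8.4 ± 0.1 in Smad2/3 DKO ESCs, 8.29 ± 0.4 in Smad2 KO ESCs and 8.04 ± 0.37 in d3 Smad2/3 DKO EBs (SD, n = 3 or 4), each within the spread of its neighbour, and then 6.72 ± 1.63 in d2 Smad2 KO EBs.

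Thap4 ran from 7.4 to 8.72 on the 11 Smad2/3 DKO arrays (median 7.97), and from 5.29 to 6.67 on the 12 WT arrays (median 6.16), none of them detected. In Smad2 KO ESCs it was 8.23 in KT12, 7.63 in KT15 and 7.71 in KT17. In d2 EBs it was 7.68 in KT12, 7.4 in KT11 and 7.34 in KT17, against 5.19, not detected, in KT15. KT17, at background for Cops8 and Fastkd3, was therefore in the KT range for Thap4.

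In d3 Smad2 KO EBs Thap4 was 8.63 in KT15, 8.08 in KT17, 6.58 in KT12 and 5.73, not detected, in KT11. In Smad3 KO ESCs it was 8.43 in CCE.2B7, 5.85 in CCE.1H1 and 5.47 in CCE.2E7. It was not detected in any Smad3 KO EB, with 5.21 to 6.57 at d2 and 5.14 to 5.5 at d3. Smad2/3 DKO levels were at least 1.95-fold (ESCs), 2.76-fold (d2) and 2.16-fold (d3) above WT.

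Zfp429 had 1 probe that was detected on 17 arrays, and 2 probes (ILMN_2661744 and ILMN_2497312) that were detected on none, at 4.94 to 5.51 and 4.81 to 5.1, and were not tested. The informative probe ran from 6.78 to 7.88 on Smad2/3 DKO arrays (median 7.52), where KT15.1F6 ESCs at 6.78 were not detected, and from 5.12 to 5.59 on WT arrays (median 5.44). In Smad2 KO ESCs it was 7.07 in KT12, 6.44, not detected, in KT15 and 7.01 in KT17. Values near the detection limit thus occurred among KT clones as well.

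In Smad2 KO EBs Zfp429 was 7.57 in KT11, 7.51 in KT12, 5.47 in KT15 and 5.38 in KT17 at d2. At d3 it was 7.27 in KT17, 6.78 in KT15, 5.37 in KT11 and 5.33 in KT12. Both low values of each stage were below detection. Among Smad3 KO arrays it was 7.32 in CCE.2B7 ESCs and no higher than 5.66 elsewhere. The bounds for Smad2/3 DKO over WT were 1.35-fold, 1.57-fold and 1.86-fold in ESCs, d2 EBs and d3 EBs.

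The 2 Glrx probes disagreed. With probe ILMN_2776922, Glrx ran from 6.93 to 9.9 on Smad2/3 DKO arrays (median 9.27) and from 5.01 to 6.79 on WT arrays (median 5.6), of which 1, d2 CCF at 6.79, was detected. In Smad2 KO ESCs this probe read 8.44 in KT12, 9.03 in KT15 and 8.24 in KT17. The value of 6.93, in d2 KT15.1F11, was close to that of CCF, and all others of these KT arrays were at 8.24 or above.

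With the same probe, Glrx in Smad2 KO EBs was 10.11 in KT12, 9.68 in KT11, 5.52 in KT15 and 5.72 in KT17 at d2. At d3 it was 10.18 in KT15, 9.37 in KT17, 5.62 in KT11 and 5.34 in KT12. It was 7.52 in CCE.2B7 ESCs and 5.2 to 6.04 on the other Smad3 KO arrays. Smad2/3 DKO exceeded WT at least 4.86-fold in ESCs and 5.77-fold in d3 EBs.

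With probe ILMN_2945348, Glrx was detected on all 45 arrays and ran from 9.91 to 11.52 in Smad2/3 DKO (median 10.96), from 10.22 to 12.11 in Smad2 KO (median 11.51), from 10.78 to 12.38 in Smad3 KO (median 11.62) and from 10.17 to 12.53 in WT (median 11.47). All 4 ranges overlap. Its difference, KT minus CC, was -0.68 in ESCs, -0.44 in d2 EBs and -0.38 in d3 EBs, opposite in sign to that of the other Glrx probe, at 3.1, 2.5 and 2.84. Which transcripts the probes read is not known here.

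KT minus CC differences of the other genes, a description of what they were chosen for, were 3.77, 3.54 and 3.54 in ESCs, d2 EBs and d3 EBs for Cops8, and 2.47, 1.93 and 1.96 for Fastkd3. They were 1.71, 1.56 and 1.68 for Thap4 and 1.24, 1.58 and 1.5 for Zfp429. By the brightest probe of each gene 4 of 5 measured differences were at least 2-fold at each stage, where 1.3%, 2.94% and 4.25% of all tested probes were. These set KT levels against CC levels mostly below detection, and the bounds above were under 2-fold for Zfp429 at every stage and for Thap4 in ESCs. With no background correction the number was 2 in ESCs, 2 in d2 EBs and 1 in d3 EBs. Without 4 arrays whose Smad3 or stage markers went against their labels, left out after the data were seen, the Cops8 differences were 4.55, 3.93 and 3.79.

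Detection of the 5 probes that were high in KT clones sorted most arrays by their labels. These probes were picked for that on the same arrays, so the sorting describes the choice and is no test of it. All 5 were detected on 16 of 22 KT arrays and 4 on a further 2. Of 23 CC arrays, 21 had none detected and 1 (d2 WT CCF) had 1. The remaining 5 arrays, 4 of KT clones and 1 of a CC clone, stood apart from their labelled origin.

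**Figure D2:**
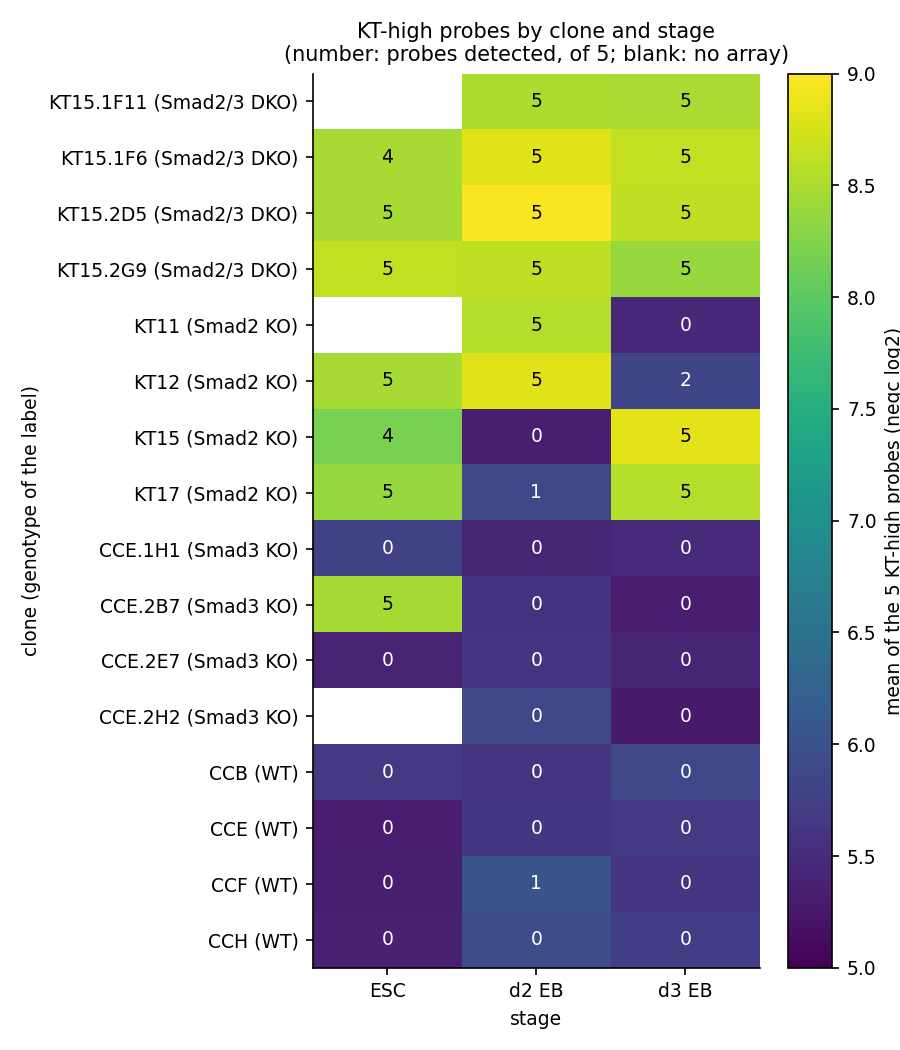
Mean normalized intensity (log2, colour) of the 5 probes high in KT clones, by clone (rows) and stage (columns), with the number of probes detected of 5, and blank where no array was analysed. KT15 and KT17 have 0 and 1 probes detected in d2 EBs, KT11 and KT12 have 0 and 2 in d3 EBs, and CCE.2B7 has 5 in ESCs, while the same clones read as labelled at their other stages.

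The d2 Smad2 KO array of KT15 had 0 of 5 probes detected, with a mean of 5.34, and the d3 array of KT11 had 0 detected, with a mean of 5.46. Smad3 was detected on both, at 9.14 and 9.75, as on 10 of 11 Smad2 KO arrays, and their ESC markers, at 10.87 and 10.69, lay beside those of d2 KT12 and KT11 (10.83 and 10.72) and d3 KT17 and KT15 (10.6 and 10.29). Their trophoblast markers averaged 9.25 and 10.33, against 6.42 to 7.29 in WT d2 EBs and 7.7 to 9.29 in WT d3 EBs. On these 2 arrays Smad3, ESC and trophoblast markers were as labelled, and the 5 genes were not.

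The other 3 arrays went against their labels by further measures. The d2 Smad2 KO array of KT17 had 1 of 5 probes detected, no Smad3 (5.19), ESC markers at 12.91 and trophoblast markers at 6.52. The d3 Smad2 KO array of KT12 had 2 of 5 detected, Smad3 at 8.25, ESC markers at 12.61 and primitive streak markers at 5.3. The ESC Smad3 KO array of CCE.2B7 had all 5 detected, Smad3 detected at 9.75, ESC markers at 10.4 and trophoblast markers at 9.21.

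A further array stood apart by Smad3 alone. In d2 Smad2/3 DKO EBs of KT15.2D5, Smad3 was detected at 9.46, and all 5 probes were detected with a mean of 8.96, as on the other Smad2/3 DKO arrays. Whether samples were exchanged was not tested.

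**Figure D3:**
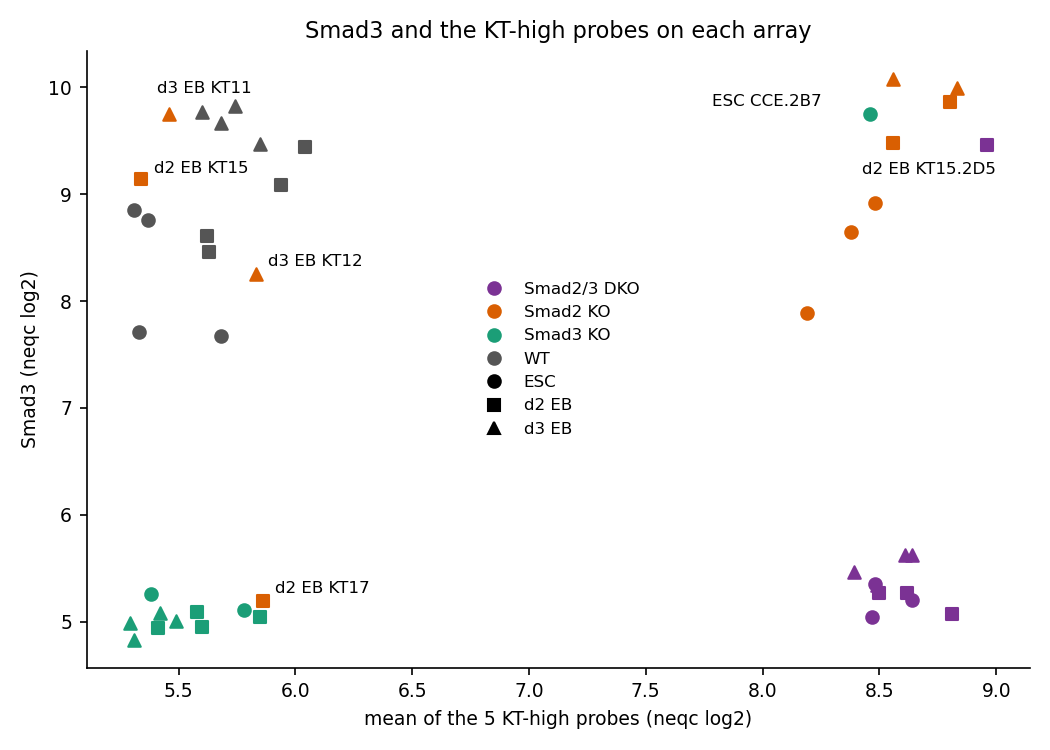
Smad3 (vertical axis) against the mean of the 5 probes high in KT clones (horizontal axis) on each of 45 arrays, both as log2 normalized intensity, with genotype in colour and stage by symbol. The 4 genotypes fall into 4 corners, with the named arrays outside the corner of their label, among them d2 KT17 beside Smad3 KO arrays and d2 KT15, d3 KT11 and d3 KT12 beside WT arrays.

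Smad2/3 DKO and Smad2 KO share the KT origin. Their arrays also served the choice of the genes as high in KT clones, so these results are not independent of it. In ESCs limma called 0 of the 5 genes at a Benjamini-Hochberg adjusted p under 0.05, by the brightest probe of each (0% of all probes, lowest adjusted p = 0.828 over all probes), and 0 had an unadjusted p under 0.05. Over all probes 3.88% had an unadjusted p under 0.05 there. In d2 EBs limma called 0, where 0.00592% of probes were called, although all 5 had an unadjusted p under 0.05, as 3.76% of all probes did. There Fastkd3 differed by 1.96 ± 0.57 and Cops8 by 2.44 ± 0.91 (SE, adjusted p = 1 for both), and the arrays of KT15 and KT17 were the low Smad2 KO values of both genes. Glrx by probe ILMN_2945348 went the other way from the rest, by -0.8 ± 0.34 (SE), and KT15 was its highest Smad2 KO value at 12.11.

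In d3 EBs 1 of 5 genes was called, where 4.3% of probes were, and 3 had an unadjusted p under 0.05, as 18.5% of all probes did. Zfp429 was 7.31, 7.58, 7.52 and 7.88 in Smad2/3 DKO against 7.27, 6.78, 5.37 and 5.33 in Smad2 KO, higher by 1.39 ± 0.35 (SE, limma adjusted p = 0.0345). The groups do not overlap, but the values of KT17 and the lowest Smad2/3 DKO clone were close. The call was lost without the 4 arrays that Smad3 or stage markers put in doubt (1.1, adjusted p = 0.0592), and leaving out single arrays gave adjusted p from 0.00498 to 0.0941. Cops8 differed by 1.94 (adjusted p = 0.195), Fastkd3 by 1.36 (0.189) and Thap4 by 0.54 (0.582).

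Smad3 KO and WT share the CC origin. Cops8, Thap4, Zfp429 and Fastkd3 passed the filter on low signal through KT arrays and were below detection in both groups in EBs, so no difference between Smad3 KO and WT could be seen for them there. Their ESC differences, such as 1.75 for Cops8 and 1.3 for Fastkd3, came with the 1 high array, CCE.2B7. Glrx by probe ILMN_2945348, detected throughout, differed by 0.15 in ESCs, -0.02 in d2 EBs and 0.39 in d3 EBs (limma adjusted p = 0.93, 0.992 and 0.616), where 0%, 0.0118% and 1.24% of probes were called.

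Stages within an origin were compared on arrays that also served the choice of the genes, so these results are not independent of it. In KT clones, 1 of 5 was called in d2 EBs against ESCs, where 27.4% of probes were: Glrx by probe ILMN_2945348 rose by 0.86 ± 0.27 (SE, limma adjusted p = 0.0168). Smad2/3 DKO values were 9.91 to 11.52 in d2 EBs and 10.15 to 11.08 in ESCs, and Smad2 KO values 11.51 to 12.11 in d2 EBs and 10.22 to 10.6 in ESCs. The groups overlapped in Smad2/3 DKO and were apart in Smad2 KO, and without the ESC array of KT15.2D5 the call was lost (0.74, adjusted p = 0.0597). With clone as a random block Glrx differed by 0.86 ± 0.27 (adjusted p = 0.0142).

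In CC clones Cops8, Thap4, Zfp429 and Fastkd3 were not detected on 22 of 23 arrays, so a change between stages could not be seen. Glrx by probe ILMN_2945348 differed by 0.61 ± 0.26 between d2 EBs and ESCs (SE, limma adjusted p = 0.0801), where 26.8% of probes were called, and by -0.39 between d3 EBs and d2 EBs (adjusted p = 0.35), where 9.53% were. Whether KT and CC clones differ in the first step was not tested. For d3 EBs against d2 EBs in KT clones, limma called 0 of 5 genes (5.75% of probes), with 0 at an unadjusted p under 0.05, as 20.4% of all probes were. The KT minus CC difference of Glrx by this probe changed by 0.06 over this step (adjusted p = 0.999), where 0.136% of probes were called.

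Paralogs and partners of the 5 genes were compared between KT and CC clones, with lists drawn up when earlier results were known. Over all 3 stages, with clone as a random block in limma, 26.3% of 9666 genes were called between KT and CC clones, with a median difference of -0.02. Of 9 other COP9 signalosome subunits 1 was called, Cops7b at -0.35 (adjusted p = 0.00632), with a median of -0.02 over the 9. The differences of Cops2, Cops3, Cops4, Cops6 and Gps1 were between -0.06 and 0.03.

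Of 5 other FAST kinase domain genes 1 was called, Fastkd5 at -0.25 (limma adjusted p = 0.03, and 0.105 without the 4 doubted arrays), and of 5 tested THAP genes 1, Thap3 at -0.3 (0.0142, and 0.0667 without them). Of 13 tested glutaredoxin, thioredoxin and glutathione genes 2 were called, Gss, which makes glutathione, at 0.27 (0.0176) and the mitochondrial glutaredoxin Glrx5 at -0.26 (0.0449, and 0.0821 without them). The medians of these 3 lists were -0.11, -0.17 and -0.17. Of 3 tested genes on the list of KRAB genes related to Zfp429, all on chromosome 13, 1 was called, Zfp748 at 0.37 (0.00629). The list did not hold Zfp87, a zinc finger gene near Zfp429 that was also called and is given below.

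Markers of other cell types also moved between KT and CC clones. All 5 tested trophoblast markers of 6 listed were higher in KT clones, by 3.62 for Plac1, 2.11 for Krt18, 1.93 for Krt8, 1.71 for Gata3 and 1.43 for Cdx2 (limma adjusted p = 1.14e-10 to 0.0367). Their mean level ran from 6.61 to 9.75 in KT and 6.15 to 9.21 in CC ESCs, from 6.52 to 11.21 in KT and 6.32 to 7.29 in CC d2 EBs, and from 8.49 to 11.69 in KT and 6.88 to 9.29 in CC d3 EBs. Of 8 fibroblast markers 2 were tested, and both, Thy1 at -0.93 and Dcn at -0.82, were lower in KT clones. Of 6 ESC markers 4 were called, Esrrb at 1.64, Klf4 at 1.59 and Zfp42 at 1.39 higher and Pou5f1 at -0.32 lower. Of 4 primed epiblast markers 3 were lower, Fgf5 at -3.16, Pou3f1 at -1.27 and Otx2 at -1.06, and of 5 primitive streak markers 2, Gsc at -1.55 and Eomes at -1.17. Of 5 primitive endoderm markers 1 was higher, Sox7 at 0.96. The part of these markers in the levels of the 5 genes was not tested, and in such bulk samples fewer cells of a type and less RNA per cell cannot be told apart.

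The genes next to the 5 were tested in the same way. Within 20 annotated genes on either side, 190 genes in all, 32 could be tested and 10 were called, 6 higher and 4 lower in KT clones, or 31.2%, where 26.2% of all placed genes were called. The median size of their differences was 0.204, against 0.162 over all genes. The called share is near the background. By pattern, 5 of the 32 had a Pearson's r over 0.6 in size with the mean of the 5 probes high in KT clones. Next to Zfp429 it was 3 of 6, and over all tested genes 149 of 9661. No test was made of these counts.

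Next to Zfp429, Zfp87, a zinc finger gene 8 places away, was higher by 1.05 (limma adjusted p = 0.000199), and Zfp748 was the other call among 6 genes tested. Next to Thap4, 3 of 9 were called, Stk25, a protein kinase gene, at 0.61 (8.31e-07), the Bcl2 family gene Bok at -0.71 (0.000683) and Hdlbp at -0.2 (0.0289, but 0.052 without the 4 doubted arrays and 0.114 with median scaling). Next to Cops8 1 of 9 was called, Rbm44 at 0.74 (0.00371). Both directions occurred within a few places of Thap4.

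Next to Fastkd3 3 of 4 tested genes were called, the RNA methyltransferase gene Nsun2 at -0.55 (limma adjusted p = 0.000144), the adenylate cyclase gene Adcy2 at 0.58 (0.0294) and Tent4a at -0.21 (0.0379). With median scaling only Nsun2 of these kept its call, with Adcy2 at 0.0703 and Tent4a at 0.14, and with no filter they stood at 0.0614 and 0.054. Adcy2 also lost it with no background correction (0.0891). Next to Glrx 1 of 4 was called, Cast, which encodes the calpain inhibitor calpastatin, at 0.93 (9.77e-06). Around Smad2 itself 2 of 6 were called, Zbtb7c at 0.53 (0.0124) and Hdhd2 at 0.26 (0.0406), and neither was without the 4 doubted arrays. By whole chromosome, 30.1% of genes tested on chromosome 1 and 28.5% on chromosome 13 were called.

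**Figure D4:**
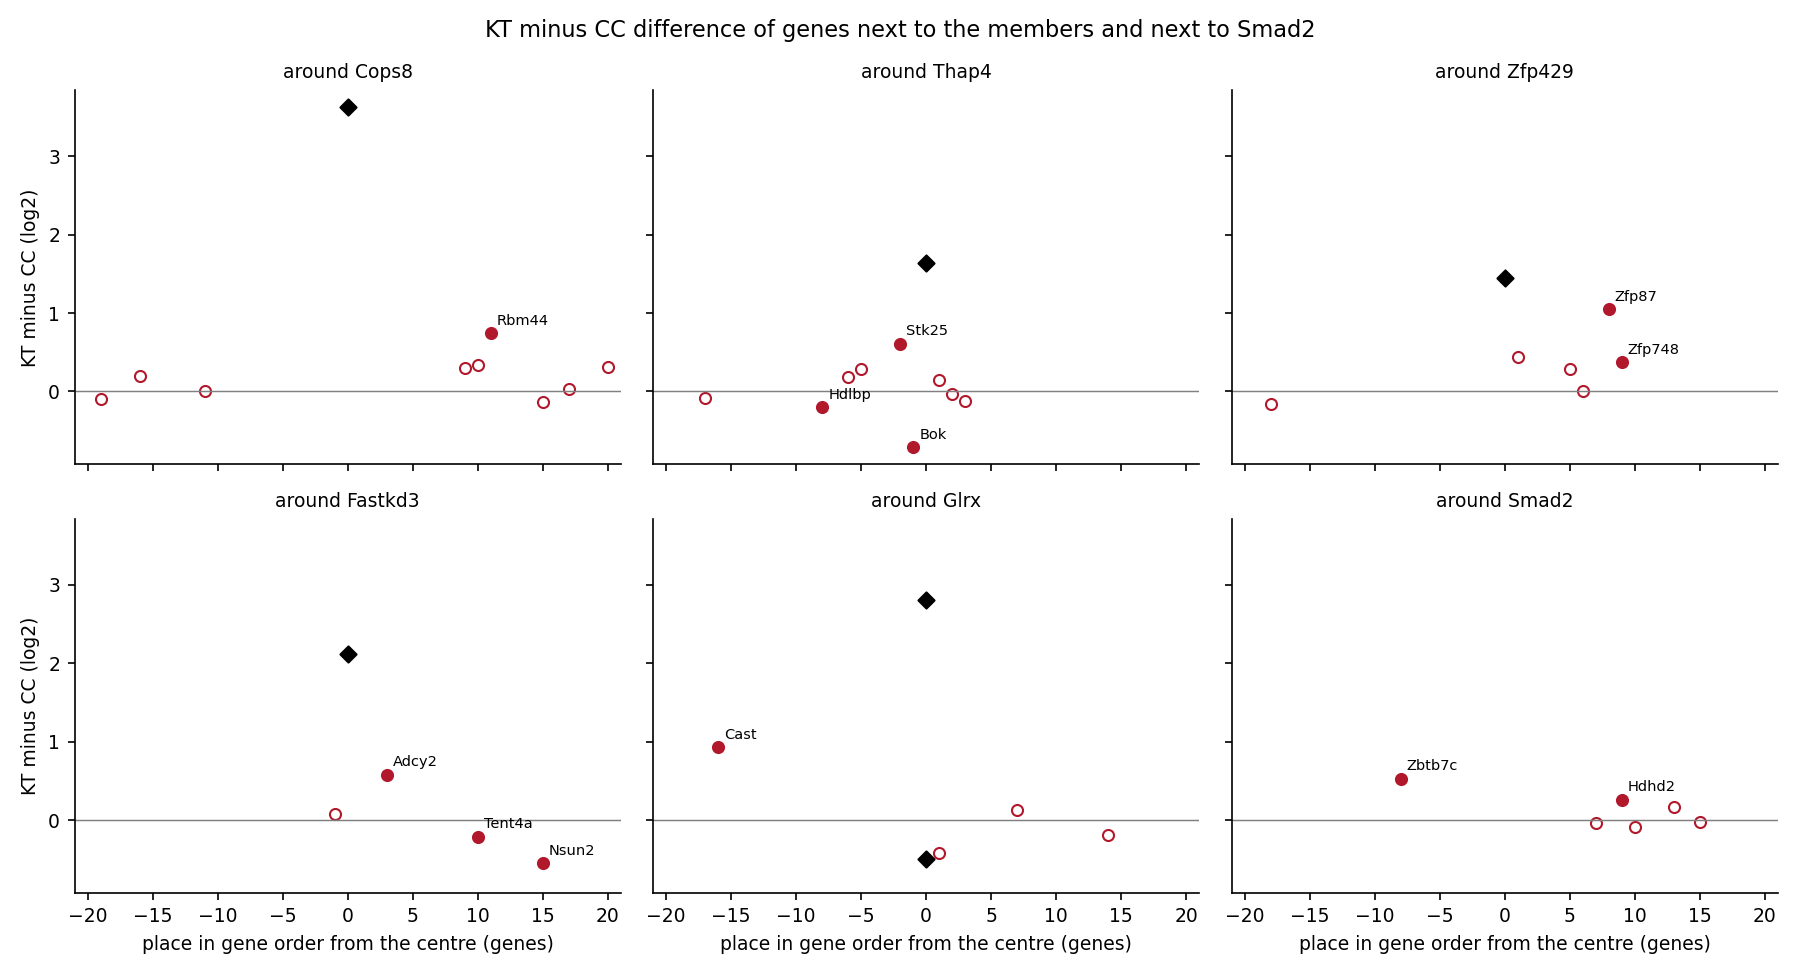
Difference between KT and CC clones over 3 stages (log2, vertical axis) of tested genes by their place in gene order from each of the 5 genes and from Smad2 (horizontal axis, in genes), with filled circles for genes called at an adjusted p under 0.05 and diamonds for the probes of the 5 genes. Beside Cops8 at 3.62 the neighbours lie between -0.14 and 0.74, and the lower Glrx diamond is probe ILMN_2945348 at -0.5.

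For a mean of the 5 genes, the brightest probe of each was standardized. Glrx, lower in KT clones by that probe, was turned in sign. The genes whose pattern over the 45 arrays was most like this mean, by the size of Pearson's r, were spread over 7 chromosomes. They were Zfp87 (r = 0.831), Dipk1b (-0.818), Zfp560 (-0.813), the peptidase gene Nln (-0.81), the Bmp target Id1 (0.801), the transporter gene Flvcr2 (0.786), Vgll3 (0.782), Ube2cbp (0.773), the imprinted growth factor gene Igf2 (0.758) and the zinc transporter gene Slc30a2 (0.755). The arrays fall into a high and a low cluster and share clones, so r here only ranks genes. Ranked by Spearman's rho 5 of these 10 were listed, and with probe ILMN_2776922 for Glrx, a choice made after the data were seen, 9 were.

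Zfp87 ran from 9.03 to 9.78 in d2 Smad2/3 DKO EBs, against 7.52 to 8.28 in d2 WT EBs. It was 7.31 on the d2 array of KT15 and 6.94 on the d3 array of KT11, and 9.5 in CCE.2B7 ESCs, the highest of all CC arrays. Its levels on these arrays went with the 5 genes. Such agreement is part of how Zfp87 and the genes below were picked, as these arrays entered r.

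Ube2cbp, a ubiquitin ligase gene on chromosome 9, was detected on all 11 Smad2/3 DKO arrays (7.34 to 8.72). It was not detected on the d2 arrays of KT15 and KT17 (5.43 and 5.54) or the d3 arrays of KT11 and KT12 (5.19 and 5.74), and stood at 8.53 in CCE.2B7 ESCs. It also was detected on 3 WT arrays.

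Of the genes that were lower in KT clones, Zfp560 was 8.85 on the d2 array of KT15 and 8.65 on the d3 array of KT11, with medians of 7.47 on KT arrays and 8.34 on CC arrays. Nln was 10.26 and 10.17 there, with medians of 9.72 (KT) and 10.23 (CC), and Dipk1b 8.39 and 7.58, with medians of 7.23 (KT) and 8.12 (CC). Zfp560 and Nln thus stood near the CC medians on both arrays. Flvcr2, Vgll3, Slc30a2 and Id1 stayed detected on these 2 arrays. Flvcr2 was 7.59 and 7.5 there, Vgll3 8.82 and 8.94, Slc30a2 7.45 and 7.63 and Id1 12.73 and 12.82. On the d2 array of KT17, Flvcr2 was not detected (6.54), Vgll3 was 7.28, Id1 11.53 and Igf2 7.19. Flvcr2, Vgll3, Id1 and Igf2 each had on that array their lowest level of the 22 KT arrays.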

How the data were processed

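RNA from mouse ESCs and EBs was hybridised to 45 Illumina MouseWG-6 v2 arrays. Probe signal was exported by the authors from GenomeStudio 2009.2 and deposited as linear intensity, with no background taken off (all values at 82 or above). The deposited detection p-value rates each signal against negative control probes. A second deposited table gives log2 values after background correction and quantile normalization by the authors. The series matrix was identical to it (largest difference 0). The authors left out 3 ESC arrays, not analysed here.

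The function neqc of limma 3.58.1 (R 4.3.3, with the package data.table, version 1.17.8, to read files) corrected the background of the signal, quantile-normalized it and took log2 after adding 16. A probe was tested if 3 or more of 45 arrays had a detection p-value under 0.01, which left 16896 of 45281 probes and 9666 genes. The array annotation gives 34885 probes a single gene symbol, 18 more than one and 10378 no symbol. Gene order and promoters came from RefSeq (GRCm38.p6), where 34807 probes with a single symbol were found by gene ID.

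Each stage was fitted with 4 genotype means, and stages with 12 means over all arrays. KT and CC clones were compared over the stages with clone as a random block (consensus correlation 0.0443). Adjusted p-values are those of Benjamini and Hochberg over all tested probes, and a gene stands for its brightest tested probe unless a probe is named. Scripts were tested on simulated data. Groups of at most 4 arrays limit the precision.

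The 5 genes, the gene lists and the tests were chosen with earlier results of these data known. Named are the 5 genes, the called genes within 20 places of them, the called genes of the family and marker lists and the 10 genes of most alike pattern. Other genes named were picked after their values were seen.

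Replicate numbers stand for the same clone across stages in WT, according to the labels. Residual correlation of all 42 same-clone pairs across stages ran from -0.472 to 0.705 (20 over 0.1), that of the 12 WT pairs among them from -0.263 to 0.46 (3 over 0.1), and that of 66 pairs of equal number and stage but different genotype from -0.336 to 0.566 (15 over 0.1), so pairing was not used first. Alternatives were median scaling, no background correction, the table normalized by the authors, no filter, a replicate block, clone as a random block for the stage comparisons, no clone block, other windows, each array left out and, added afterwards, all 4 doubted arrays left out.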

Additional observations from a re-analysis of the deposited data

Results flagged for a closer look

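In groups of 4 arrays, a sample was singled out where its gap to the nearest of the others was large against the range of the group by Dixon's criterion, which chance meets in about 1 in 20 groups. Of 54 groups examined by probe 4 met it. Thap4 in d2 Smad2 KO EBs was 5.19 in KT15, against 7.34 to 7.68 in the other clones. Thap4 in d3 Smad3 KO EBs was 5.14 in CCE.2B7, against 5.46 to 5.5 in the others, all not detected. Thap4 in WT ESCs was 6.43 in CCB, against 5.29 to 5.46 in the others, again all not detected. Glrx by probe ILMN_2776922 in d2 Smad2/3 DKO EBs was 6.93 in KT15.1F11, against 9.41 to 9.9 in the others. On the same array Glrx by probe ILMN_2945348 (9.91) was also the lowest of its group, without meeting the criterion, and Cops8 (10.47) was the highest of its group. Groups with 2 high and 2 low arrays, as Cops8, Zfp429 and Fastkd3 had in Smad2 KO EBs, cannot meet this criterion.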

How the results depend on the processing

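Of 1177 recomputed counts 1080 were within 1.5 times the first value and 97 moved. Of 1357 values for single genes or for the list of alike genes 88 lost their call and 12 moved. A change of sign was counted only for a gene called before or after, and there were 0. With no background correction the number of the 5 genes at least 2-fold higher in KT clones was 2 in ESCs, 2 in d2 EBs and 1 in d3 EBs, where it had been 4 at each stage. The 1 call between Smad2/3 DKO and Smad2 KO at d3 (Zfp429) became 0 with median scaling, with the table normalized by the authors, with no filter and without the 4 doubted arrays, with adjusted p of 0.0716, 0.0563, 0.0879 and 0.0592 for Zfp429 in limma. The neighbours called numbered 16 of 56 in a window of 40 genes. Those of Smad2 numbered 1 with median scaling, 1 with no filter and 0 without the 4 arrays. COP9 subunits called numbered 2 with no background correction, with the authors' table, without the 4 arrays and with no clone block. FAST kinase genes numbered 0 with median scaling and without the 4 arrays, and glutaredoxin and related genes 0 with median scaling and 1 with no filter. Genes called between KT and CC clones numbered 2538, and 1672 with median scaling, which left the median difference of all genes at -0.05. The cause of these shifts was not tested.

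With single arrays left out, the counts ran from 0 to 2 for Smad2/3 DKO against Smad2 KO at d3 (0 without any 1 Smad2/3 DKO array or without KT11 or KT12 of Smad2 KO, 2 without KT15), from 0 to 1 for d2 EBs against ESCs in KT clones, from 8 to 13 for neighbours and from 1 to 2 for those of Smad2. They ran from 1 to 3 for COP9, THAP and glutaredoxin lists, from 0 to 1 for FAST kinase genes, from 1 to 2 for KRAB genes, from 2 to 3 for primitive streak and from 4 to 5 for trophoblast markers. They stayed at 4 for the 5 genes at each stage, 4 for ESC, 3 for primed epiblast, 2 for fibroblast and 1 for primitive endoderm markers, and 0 for the remaining comparisons and Y-linked genes. In the comparisons within CC clones 4 of the 5 genes were below detection, so that 0 says nothing of stability.

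With replicate number as a block, the counts were 4 at least 2-fold higher at each stage, 1 between Smad2/3 DKO and Smad2 KO at d3 (Zfp429, adjusted p = 0.0488 in limma), 1 for d2 EBs against ESCs in KT clones (Glrx, 0.0235) and 0 elsewhere, so the block changed no call. Replicate numbers mark one clone across all stages in WT alone. Between ESCs and d2 EBs that block pairs KT17, KT15.2G9 and KT15.2D5, but not KT12, KT15 or KT15.1F6. With clone as a random block the stage counts were again 1 for d2 EBs against ESCs in KT clones (Glrx, adjusted p = 0.0142) and 0 for the others.

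A level at background is only a bound. With no background correction the KT minus CC difference was 0.82, 0.81 and 0.86 for Thap4 and 0.55, 0.74 and 0.71 for Zfp429 in ESCs, d2 EBs and d3 EBs.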

Other observations

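Ube2cbp differed between WT clones and between stages of a clone. It was 8.36 in CCF ESCs but 5.59 and 5.36, not detected, in CCF d2 and d3 EBs. It was 5.57, not detected, in CCH ESCs but 9 and 8.92 in CCH d2 and d3 EBs. The other 2 WT clones were not detected at any stage.

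Here r was taken with the mean of the 5 probes high in KT clones, ILMN_2776922 for Glrx, over the 45 arrays. Of genes tested on chromosome 13, 4.45% had an r over 0.6 in size, against 2.92% on chromosome 1 and 1.55% of all placed genes. The arrays fall into 2 clusters, and no test was made of these shares.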
